A study of Homo sapiens with 9 samples.

Results

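The genes described here encode the machinery that carries proteins into mitochondria and folds them there. A gene was included if its symbol starts with TIMM or TOMM, or is SAMM50, GRPEL1, HSPA9, HSPD1, HSPE1, PMPCA, PMPCB, MTX1, MTX2 or TRAP1, and if a probe set named it alone. This gave 33 genes and 65 probe sets, out of 19775 genes and 54613 probe sets, and where a gene had several, the one with the highest mean over all 9 arrays stood for it. Of the 33 genes, 32 passed the filter on low values. The exception was TIMM23. The symbol rule also took in 2 genes outside the import complexes, TOMM34, a cochaperone of cytosolic precursor proteins, and TIMMDC1, an assembly factor of respiratory complex I. TOMM6 and TOMM7 share their probe sets with other genes on this array and were not used here.

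The cells were MCF10A, a line of spontaneously immortalized human breast epithelium that forms no tumours and needs EGF to grow. They were profiled on 9 one-colour Affymetrix arrays, 3 per group. One group carried a pBabe retrovirus for ErbB2, a receptor tyrosine kinase of the EGF receptor family. The EGF group carried the empty pBabe virus and received EGF at 50 ng/ml for 2 h before harvest, and the vector group carried the empty virus alone. All 3 groups shared retroviral infection and a switch from maintenance medium with 5% horse serum and 20 ng/ml EGF to medium with 2% horse serum and no EGF. The labels call the replicates biological without saying whether infections were separate, so that p-values reflect only how far these samples spread, which may be technical. Whether infected cells were selected or cloned is not given in the sources used here.

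Nearly all mitochondrial proteins are made in the cytosol and imported. The TOM complex of the outer membrane receives them, the SAM complex inserts barrel-shaped proteins into that membrane, and small TIM chaperones escort hydrophobic proteins across the intermembrane space to the TIM22 translocase of the inner membrane. Proteins with an N-terminal presequence pass through the TIM23 translocase, are pulled into the matrix by a motor built on the chaperone HSPA9, lose the presequence to a peptidase and are folded by HSPD1 with HSPE1.

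Values are signals on the authors' linear scale, and changes are differences of log2(signal + 16) with their standard error. A call is a Benjamini-Hochberg adjusted p under 0.05 from limma over all 32768 probe sets tested. The transcript that defines the retroviral group did not settle its label. The brightest ERBB2 probe set read 98.8 ± 23.1 in the arrays labelled ERBB2 and 174.0 ± 48.0 in vector arrays (SD, n = 3 each; log2 change -0.71), whereas a dimmer one read 35.6 ± 2.51 and 12.6 ± 8.78 (0.89). On EGF arrays these probe sets read 104.1 ± 23.3 and 15.4 ± 1.19. The brightest was called lower with EGF too (-0.65, adjusted p = 0.01809), and not between arrays labelled ERBB2 and EGF arrays (-0.07, adjusted p = 0.8573). The dimmer one was called higher in the arrays labelled ERBB2 than with EGF (0.715, adjusted p = 0.04963). A further ERBB2 probe set, dim in all groups, was called in no comparison. The group is therefore called "labelled ERBB2". The ACTB and 18S RNA controls also set it apart, and the GAPDH control did not. For ACTB the 5' control divided by the 3' control gave 0.737 ± 0.0513 there, 0.443 ± 0.0634 with EGF and 0.379 ± 0.0553 in vector arrays. The 3' control of 18S ribosomal RNA read 12590 ± 826, 2868 ± 673 and 3380 ± 1330 in the same order of groups. For GAPDH the ratio of the 2 controls was 0.869 ± 0.0318, 0.812 ± 0.0452 and 0.847 ± 0.034 in that order, with overlapping groups. The ACTB and 18S differences accompany every change described for the arrays labelled ERBB2, and their part in it was not tested. Epithelial markers were present, with group means of 1063 to 2357 for EPCAM and 6227 to 11860 for KRT5. Of 6 basal epithelial markers KRT17 and TP63 had no probe set that named them alone. The other 4 were KRT5, KRT14, ITGA6 and LAMB3. They summed to 7417 to 7977 on arrays labelled ERBB2, 12680 to 15190 on EGF arrays and 14900 to 16980 on vector arrays. Most of this was KRT5. KRT14 averaged 148.9, 1758 and 2640. LAMB3 was called higher than in vector arrays in both comparisons (0.53 and 1.19) and ITGA6 with EGF (1.27). The 7 general and luminal epithelial markers, 5 of them past the filter, summed to 10100 to 11470, 8755 to 9145 and 7104 to 7550 in the same order of groups. KRT18 and EPCAM were called higher than in vector arrays in both comparisons (0.83 and 0.52, and 1.13 and 0.41). CDH1 was called lower in both (-0.43 and -0.26), and KRT8 was called lower in the arrays labelled ERBB2 (-0.39). Of 7 blood and endothelial markers 4 (PTPRC, CD3E, CDH5 and VWF) did not pass the filter, and the 7 signals together lay between 258.5 and 329.9 on arrays labelled ERBB2, 253.2 and 292.9 on EGF arrays and 249.4 and 265.7 on vector arrays. CD14 made up most of this sum. PECAM1, picked out after its values were seen, averaged 90.1 in the arrays labelled ERBB2, 39.9 with EGF and 29.0 in vector arrays, and it was called higher in the arrays labelled ERBB2 than in vector arrays (1.27, adjusted p = 7.803e-05) and EGF arrays (0.94, adjusted p = 0.002837). Of 6 fibroblast markers 3 passed, with sums over all 6 of 394.7 to 576.2, 501.6 to 557.6 and 1357 to 1509 in the same order. Most of that was DCN, with means of 378.4, 433.4 and 1345 in the arrays labelled ERBB2, EGF and vector. The part of these marker differences in the results was not tested.

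The arrays labelled ERBB2 had more RNA signal than vector arrays for most import and folding genes. Of 32 genes tested 23 rose, 1 fell and 8 were not called. Among all 13726 genes tested, 45.8% were called, 20.8% higher and 25% lower. The median log2 change of the 32 genes was 0.56, with a range of -0.28 to 1.68, against -0.07 over all genes. Groups did not overlap for 25 of the 32, against 52.7% of all genes. In a bulk extract a change in the cells' make-up and a change of RNA per cell cannot be told apart.

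With 2 h of EGF the counts were similar. Of the 32 genes 24 rose, none fell and 8 were not called, where 36.1% of all genes were called, 17.2% higher and 18.9% lower. At an unadjusted p under 0.05 limma gave 24 higher and 1 lower, SAMM50. The median change was 0.53, with a range of -0.29 to 1.29, against -0.10 over all genes, and groups did not overlap for 27 of the 32, against 48.7%. When all arrays were given equal medians, the median over all probe sets was 0.05, in place of -0.11, and that of the 32 genes was 0.69, with 26 of them called higher. Both comparisons use the same vector arrays, so their values are given side by side and not counted as independent.

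**Figure D1:**
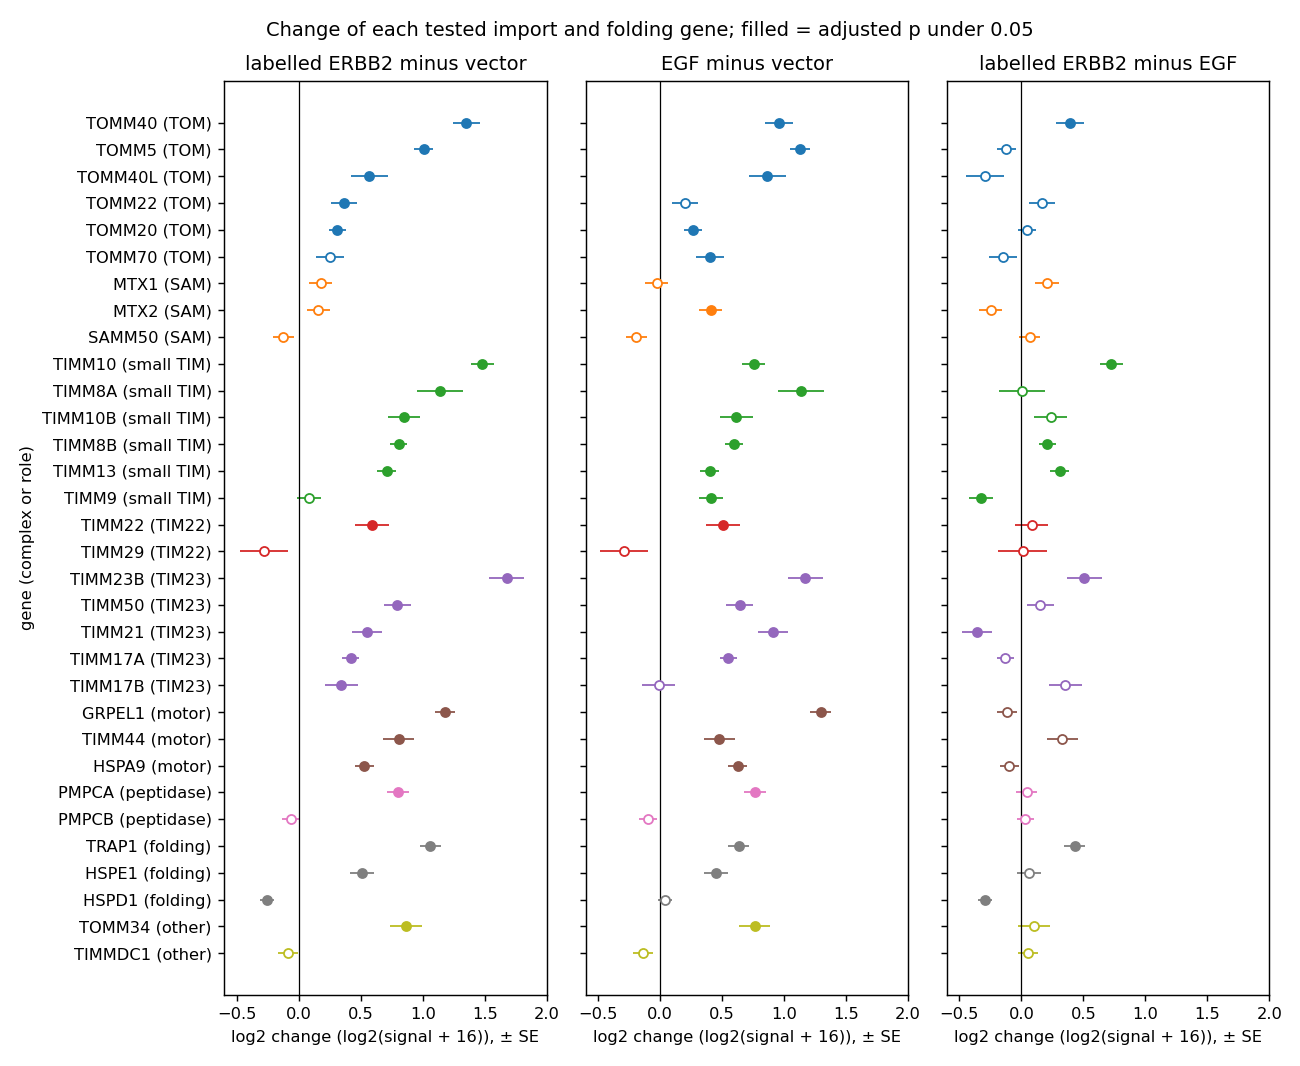
Log2 change with its standard error (x axis, differences of log2(signal + 16)) of the 32 tested genes (y axis, grouped by complex) in the 3 comparisons. Filled points have an adjusted p under 0.05. Most points lie right of 0 in both comparisons with vector arrays, SAMM50, PMPCB, TIMM29 and TIMMDC1 lie left of 0 in both, and the points scatter around 0 between arrays labelled ERBB2 and EGF arrays.

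**Figure D2:**
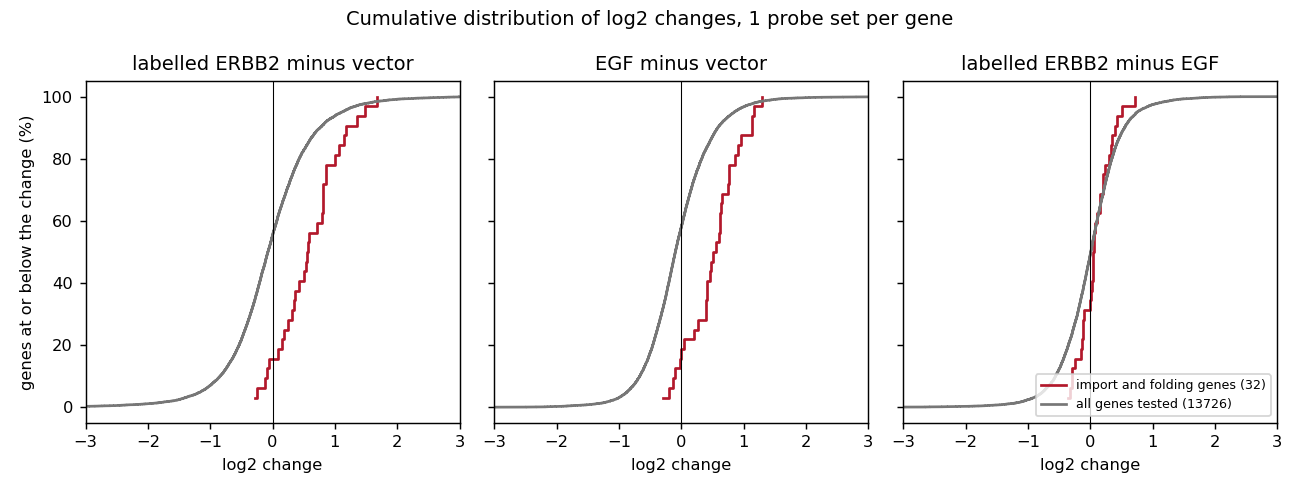
Share of genes (y axis, percent) at or below a given log2 change (x axis) for the 32 import and folding genes and for all 13726 genes tested. The curve of the import genes lies to the right of that of all genes in both comparisons with vector arrays, with medians of 0.56 and 0.53 against -0.07 and -0.10, and close to it between arrays labelled ERBB2 and EGF arrays (0.06 against 0.01).

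In the TOM complex 5 of 6 genes rose in each comparison with vector arrays, with medians of 0.47 in the arrays labelled ERBB2 and 0.63 with EGF. Among all genes tested 20.8% and 17.2% were called higher, shares that apply beside the counts of rising import genes below. TOMM40, the barrel-shaped channel, read 467, 420.2 and 467 on arrays labelled ERBB2, 321, 353 and 345 on EGF arrays and 142, 182 and 179 on vector arrays. TOMM5, a small subunit that helps hold the channel together, read 2604, 2492 and 2768 on arrays labelled ERBB2, 2739, 2863 and 2948 with EGF and 1205, 1445 and 1244 in vector arrays. All 6 arrays of these groups were above all 3 vector arrays for both genes. TOMM40 changed by 1.35 ± 0.11 in the arrays labelled ERBB2 (adjusted p = 7.219e-09) and by 0.96 ± 0.11 with EGF (adjusted p = 1.731e-06). For TOMM5 the changes were 1.01 ± 0.08 (adjusted p = 2.648e-09) and 1.13 ± 0.08 (adjusted p = 1.484e-09).

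The TOM receptors had smaller changes, a difference between genes that was not tested. TOMM20, a receptor for presequences, read 5976, 6930 and 5873 on arrays labelled ERBB2, 5940, 6170 and 6023 with EGF and 5167, 4711 and 5215 in vector arrays. Its changes of 0.31 ± 0.07 and 0.27 ± 0.07 were called (adjusted p = 0.001346 and 0.007246), but a further bright TOMM20 probe set stood at -0.14 (adjusted p = 0.09255) and -0.10 (adjusted p = 0.2975), and with the mean of both the calls ended (0.08 each). Both also ended without a variance trend, and over 19 alternatives the adjusted p lay between 1.557e-05 and 0.2981 in the arrays labelled ERBB2 and between 0.0002427 and 0.3243 with EGF. TOMM22, the receptor at the centre of the complex, read 959, 993 and 813 on arrays labelled ERBB2, 695, 852 and 925 with EGF and 726, 656 and 748 in vector arrays. It rose in the first comparison (0.37 ± 0.11, adjusted p = 0.008827), a call that ended without a variance trend (adjusted p between 0.003862 and 0.07315 over the alternatives). With EGF it was not called (0.20, adjusted p = 0.1697) and the groups overlapped, but it was called with equal array medians (0.36) and without EGF replicate 1 (0.32), with adjusted p between 0.02425 and 0.5323. TOMM70, which receives carrier proteins from cytosolic chaperones, read 738, 869.7 and 967 on arrays labelled ERBB2, 1026, 1001 and 826 with EGF and 825, 687 and 640.2 in vector arrays. It rose with EGF (0.40 ± 0.11, adjusted p = 0.01047) and was not called in the arrays labelled ERBB2 (0.25, adjusted p = 0.08399). A further TOMM70 probe set was called in neither, at 0.125 with EGF (adjusted p = 0.3754) and -0.06 in the arrays labelled ERBB2 (adjusted p = 0.6609). The EGF call of TOMM70 ended without EGF replicate 1 (0.34), without vector replicate 3 (0.33) and without a variance trend, and the adjusted p ranged between 0.0005292 and 0.09101. The call in the arrays labelled ERBB2 appeared without ERBB2 replicate 1 (0.36), without vector replicate 1 (0.36) and with equal array medians (0.30), with adjusted p between 0.02218 and 0.4158.

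TOMM40L, a close relative of TOMM40, had its highest group mean with EGF, and TOMM40 in the arrays labelled ERBB2. TOMM40L read 168, 142 and 188 on arrays labelled ERBB2, 238, 165 and 223 with EGF and 99.3, 121 and 98.3 in vector arrays. Its changes were 0.57 ± 0.15 (adjusted p = 0.004787) in the arrays labelled ERBB2 and 0.87 ± 0.15 (adjusted p = 0.0001801) with EGF. TOMM34, the cytosolic cochaperone, rose by 0.86 ± 0.13 and 0.76 ± 0.13, its groups not overlapping in either comparison.

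None of the 3 SAM genes was called in the arrays labelled ERBB2 (at an unadjusted p under 0.05, none either), and 1 rose with EGF. SAMM50, the barrel protein at its core, read 560.4, 587 and 603 on arrays labelled ERBB2, 532, 584 and 553 with EGF and 629.9, 618 and 665 in vector arrays, so that all vector arrays were the highest. Its changes of -0.12 and -0.19 were not called (adjusted p = 0.2789 and 0.1059), although a further SAMM50 probe set was called lower in the arrays labelled ERBB2 (-0.26, adjusted p = 0.02704). With the mean of the SAMM50 probe sets the first change was called (-0.19, adjusted p between 0.03652 and 0.5588 over the alternatives), and with quantile normalization the second (-0.25, adjusted p between 0.03344 and 0.854). Of its partners, the metaxins, MTX2 rose with EGF (0.41 ± 0.09, adjusted p = 0.002363) and stood at 0.16 in the arrays labelled ERBB2 (adjusted p = 0.2013). MTX1 stood at 0.18 and -0.03, not called in either (adjusted p = 0.1439 and 0.8616), and the sign of the second turned with equal array medians (0.13), without vector replicate 2 (0.04) and without EGF replicate 1 (0.02).

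**Figure D3:**
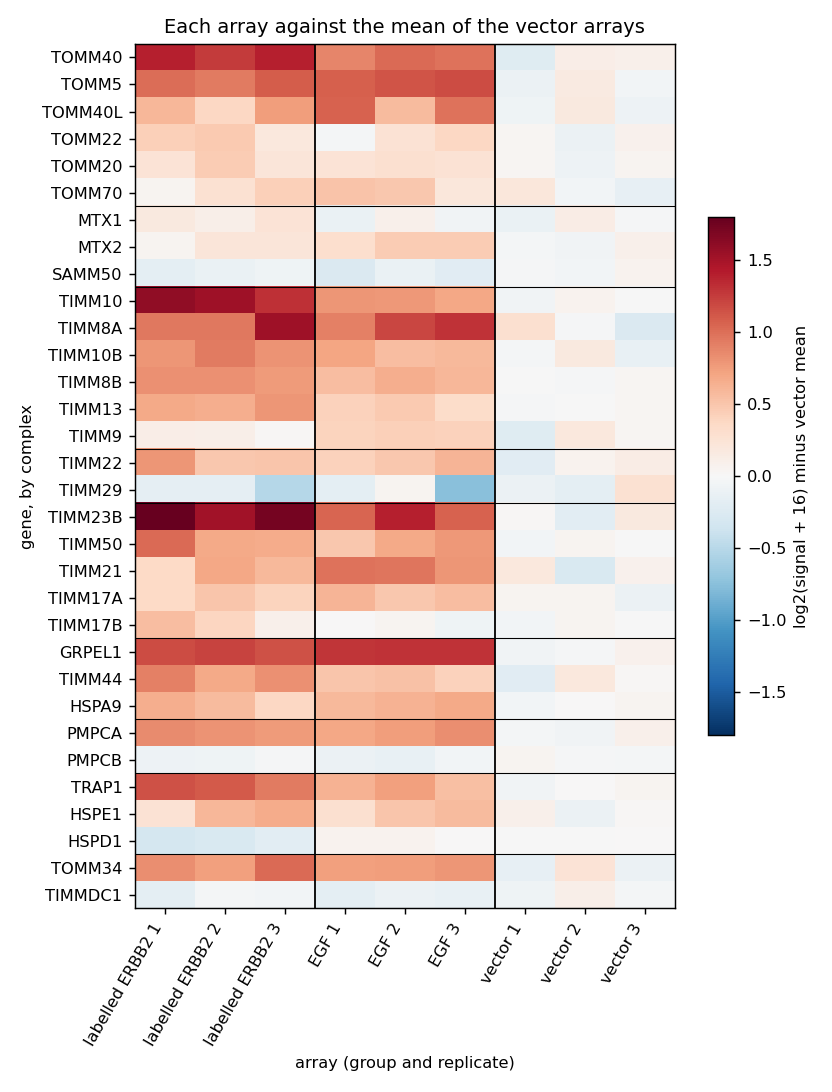
Each of the 32 genes (rows, grouped by complex) on each of the 9 arrays (columns), coloured by log2(signal + 16) minus the mean of the 3 vector arrays. Red rows run through both arrays labelled ERBB2 and EGF arrays for most genes, and the rows of MTX1, SAMM50, TIMM29, PMPCB and TIMMDC1 stay pale or turn blue.

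Small TIM chaperones, which keep hydrophobic proteins soluble between the membranes, rose in 5 of 6 cases in the arrays labelled ERBB2 (median 0.83) and in 6 of 6 with EGF (median 0.61). TIMM10, the partner of TIMM9 in the chaperone for carrier proteins, read 987, 943 and 807 on arrays labelled ERBB2, 561, 551 and 519 with EGF and 303, 331 and 313 in vector arrays. These 3 groups were fully separated. TIMM10 changed by 1.48 ± 0.10 (adjusted p = 1.801e-10) and 0.75 ± 0.10 (adjusted p = 4.151e-06), and its further probe set by 1.35 and 0.61, both called.

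TIMM9, the partner of TIMM10, was called with EGF and not in the arrays labelled ERBB2. It read 586, 578 and 547 on arrays labelled ERBB2, 711, 728 and 719.7 with EGF and 461, 611 and 548 in vector arrays. The EGF arrays were the highest, and the other 2 groups overlapped. Its change was 0.09 in the arrays labelled ERBB2 (adjusted p = 0.5372), and -0.02 without vector replicate 1, and it was 0.41 ± 0.10 with EGF (adjusted p = 0.002988).

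TIMM8A, whose loss causes a human deafness and dystonia syndrome, read 108, 109 and 169 on arrays labelled ERBB2, 105, 132 and 143 with EGF and 62.3, 47.6 and 37.6 in vector arrays. It changed by 1.14 ± 0.19 in both comparisons (adjusted p = 5.614e-05 and 0.0001044), and at these low signals the added 16 holds the log2 change down, so that a pseudocount of 1 gave 1.37 and 1.36. TIMM8B, its close relative, read 2050, 2055 and 1983 on arrays labelled ERBB2, 1696, 1817 and 1747 with EGF and 1151, 1134 and 1179 in vector arrays. It changed by 0.81 ± 0.07 and 0.60 ± 0.07, while a further TIMM8B probe set was not called in either comparison (-0.04, adjusted p = 0.8441, and 0.34, adjusted p = 0.05941). TIMM13, the partner of the TIMM8 proteins, read 1489, 1451 and 1608 on arrays labelled ERBB2, 1230, 1280 and 1157 with EGF and 903, 914 and 945 in vector arrays. It changed by 0.71 ± 0.08 and 0.40 ± 0.08. TIMM10B, which joins the small chaperones to TIM22, rose by 0.85 ± 0.13 and 0.62 ± 0.13, and its further probe set was called with the same direction in both.

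Of the TIM22 translocase, which inserts carrier proteins into the inner membrane, TIMM22, the channel subunit, rose by 0.59 ± 0.13 (adjusted p = 0.001378) and 0.51 ± 0.13 (adjusted p = 0.006952). Neither of 2 dimmer TIMM22 probe sets was called, and with the mean of all of them the EGF call ended (0.26, adjusted p between 0.0009638 and 0.132 over the alternatives). TIMM29, a subunit of the same complex, read between 68.5 and 91.7 on arrays labelled ERBB2, 55.8 and 109 with EGF and 91.0 and 129.5 in vector arrays, and its changes of -0.28 and -0.29 were not called (adjusted p = 0.2898 and 0.3024).

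In the TIM23 translocase, which passes proteins with a presequence, all 5 tested genes rose in the arrays labelled ERBB2 and 4 with EGF. TIMM50, the receptor that receives presequences from TOM, read 689.5, 541 and 537 on arrays labelled ERBB2, 467, 539 and 578 with EGF and 319, 344 and 329.7 in vector arrays. It changed by 0.79 ± 0.11 (adjusted p = 6.840e-06) and 0.64 ± 0.11 (adjusted p = 0.0001388), and with the mean of its probe sets the EGF call ended (0.46, adjusted p between 1.963e-05 and 0.05385 over the alternatives). TIMM21, which ties TIM23 to TOM, read 435.5, 558 and 514 on arrays labelled ERBB2, 676, 669.8 and 596 with EGF and 387, 276 and 358 in vector arrays. It changed by 0.55 ± 0.12 (adjusted p = 0.0009679) and 0.91 ± 0.12 (adjusted p = 7.422e-06).

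TIMM17A and TIMM17B are alternative subunits of the TIM23 channel. TIMM17A read 3200, 3513 and 3300 on arrays labelled ERBB2, 3795, 3501 and 3654 with EGF and 2583, 2565 and 2321 in vector arrays. TIMM17B read 227, 202 and 161 on arrays labelled ERBB2, 150.4, 155 and 141 with EGF and 145, 157 and 149 in vector arrays. TIMM17A rose by 0.42 ± 0.07 (adjusted p = 5.654e-05) and 0.55 ± 0.07 (adjusted p = 4.463e-06), and its 2 further probe sets past the filter gave larger rises, 1.17 and 0.79 in the arrays labelled ERBB2 and 1.11 and 0.87 with EGF. TIMM17B was called in the arrays labelled ERBB2 (0.34 ± 0.13, adjusted p = 0.04808), but 12 of 19 alternatives ended the call (adjusted p of 0.0105 to 0.2057), among them leaving out any vector, any EGF replicate or ERBB2 replicate 1 (0.24) or 2 (0.32). With EGF it stood at -0.01 (adjusted p = 0.9625). Whether the 2 genes differed from each other was not tested.

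The channel gene TIMM23 could not be measured under its own name. Its single-gene probe set read 1.14, 2.13 and 25.1 on arrays labelled ERBB2, 13.4, 0.9597 and 14.9 with EGF and 3.01, 1.57 and 9.90 in vector arrays, without passing the filter. TIMM23B, a near-identical copy of TIMM23, read 305, 246 and 287 on arrays labelled ERBB2, 174, 225 and 177 with EGF and 76.9, 64.6 and 87.8 in vector arrays. Its changes of 1.68 ± 0.14 (adjusted p = 9.015e-09) and 1.17 ± 0.14 (adjusted p = 2.611e-06) are uncertain as to the gene, since transcripts of near-identical copies can share probes. The probe sets that the annotation gives to both copies were not used.

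All 3 tested motor genes chosen by symbol, GRPEL1, HSPA9 and TIMM44, rose in both comparisons with vector arrays. GRPEL1, which exchanges the nucleotide on HSPA9, read 815, 835 and 799 on arrays labelled ERBB2, 877, 891 and 890.4 with EGF and 336, 348 and 373 in vector arrays. It changed by 1.18 ± 0.08 (adjusted p = 6.801e-10) and 1.29 ± 0.08 (adjusted p = 5.220e-10), and of all genes tested 4.3% and 1.5% had a larger rise. Its further probe set gave 1.30 and 1.41. HSPA9, the mitochondrial HSP70, read 3421, 3226 and 2799 on arrays labelled ERBB2, 3250, 3349 and 3474 with EGF and 2087, 2172 and 2248 in vector arrays. Its changes of 0.53 ± 0.08 (adjusted p = 1.060e-05) and 0.63 ± 0.08 (adjusted p = 2.589e-06) were smaller than those of its 2 further probe sets past the filter, 0.91 and 0.71 in the arrays labelled ERBB2 and 0.79 and 0.83 with EGF. TIMM44, which anchors HSPA9 at the channel, read 286, 242 and 269 on arrays labelled ERBB2, 211, 215 and 198 with EGF and 124, 167 and 147 in vector arrays. It changed by 0.81 ± 0.13 (adjusted p = 2.744e-05) and 0.48 ± 0.13 (adjusted p = 0.006296). Its EGF call ended with the mean of its probe sets (0.21, adjusted p between 0.0005673 and 0.1647 over the alternatives), a further one of which stood at -0.07.

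**Figure D4:**
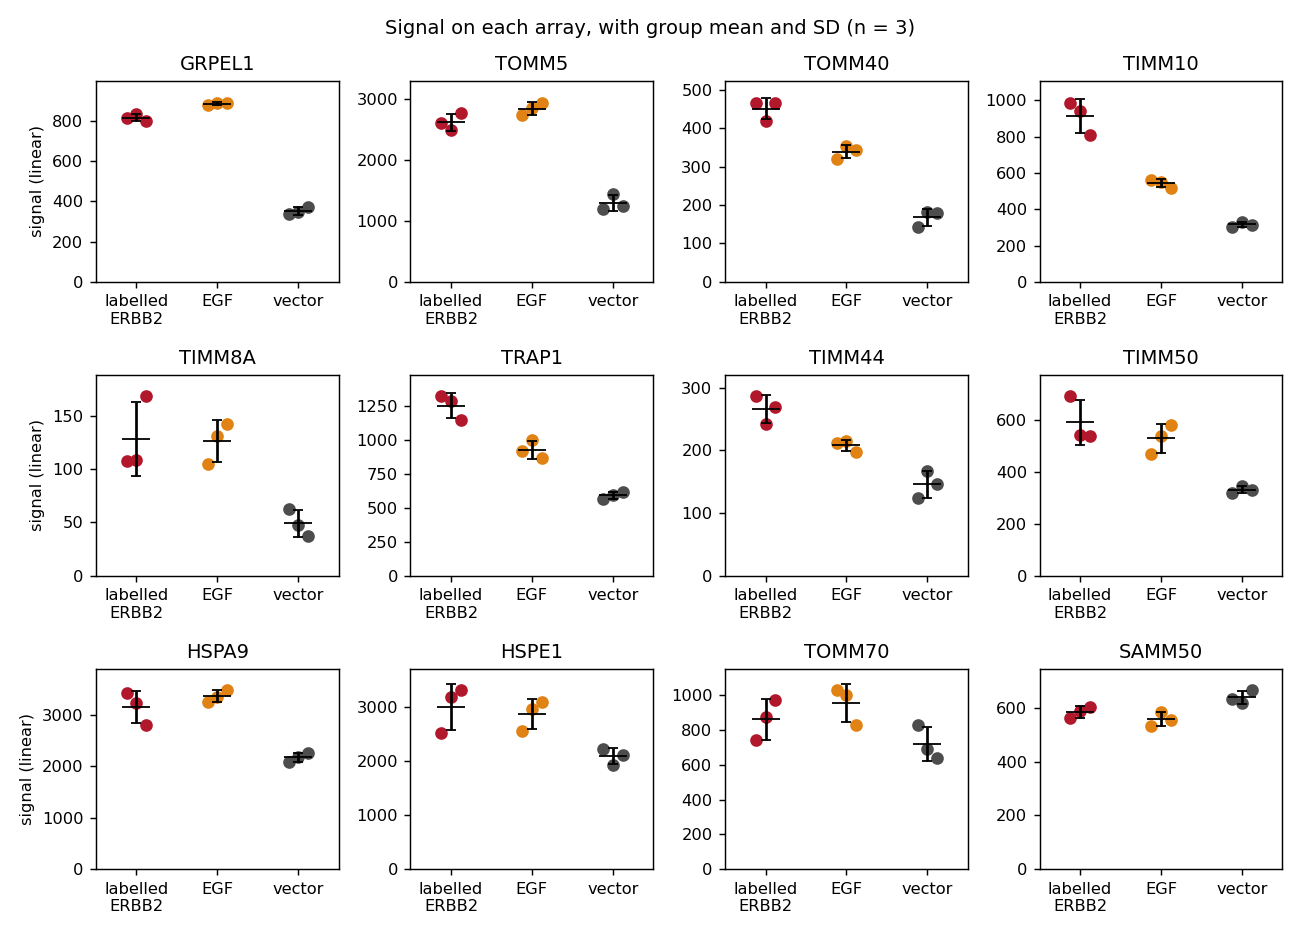
Linear signal (y axis, from 0) of 12 genes on each array, with the group mean and SD (n = 3). For GRPEL1, TOMM5, TOMM40 and TIMM10 every array labelled ERBB2 and every EGF array lies above every vector array, GRPEL1 and TOMM5 have their highest group means with EGF, TIMM10 and TRAP1 theirs in the arrays labelled ERBB2, and the vector arrays are the highest for SAMM50.

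The peptidase that removes presequences has a pair of subunits, and only one was called. PMPCA, the subunit that helps bind the precursor, read between 684 and 726 on arrays labelled ERBB2, 649.6 and 725 with EGF and 381 and 422 in vector arrays. It rose by 0.80 ± 0.09 (adjusted p = 3.186e-07) and 0.76 ± 0.09 (adjusted p = 1.344e-06). PMPCB, the catalytic subunit, read between 1360 and 1428 on arrays labelled ERBB2, 1327 and 1404 with EGF and 1421 and 1500 in vector arrays, and its changes of -0.06 and -0.09 were not called (adjusted p = 0.5269 and 0.3581). TIMMDC1, the complex I assembly factor, stood likewise at -0.09 and -0.14 (adjusted p = 0.432 and 0.217).

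Among the folding chaperones of the matrix, TRAP1, the mitochondrial HSP90, read 1325, 1290 and 1153 on arrays labelled ERBB2, 921, 999 and 867 with EGF and 565, 597 and 616 in vector arrays. The 3 groups did not overlap. TRAP1 changed by 1.06 ± 0.09 (adjusted p = 4.997e-09) and 0.63 ± 0.09 (adjusted p = 1.049e-05). HSPE1, the lid of the HSPD1 folding chamber, read 2508, 3177 and 3308 on arrays labelled ERBB2, 2561, 2952 and 3089 with EGF and 2219, 1930 and 2118 in vector arrays. It rose by 0.51 ± 0.10 (adjusted p = 0.0002359) and 0.45 ± 0.10 (adjusted p = 0.001228).

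HSPD1, the chaperonin HSP60, gave opposite calls on its 2 brightest probe sets. The brightest read 9708, 9990 and 10560 on arrays labelled ERBB2, 12580, 12540 and 12040 with EGF and 11960, 12010 and 12150 in vector arrays. It was the only call downward in the arrays labelled ERBB2 among the 32 genes (-0.26 ± 0.06, adjusted p = 0.001137). The next averaged 6431 in the arrays labelled ERBB2, 4938 with EGF and 4220 in vector arrays, and it was called higher in the arrays labelled ERBB2 (0.61, adjusted p = 6.680e-05). The call on the brightest probe set ended with quantile normalization (-0.01), with the mean of the HSPD1 probe sets (-0.02) and without a variance trend, and the adjusted p ranged between 0.0008677 and 0.9271, so these arrays give HSPD1 no settled direction there. With EGF the 2 probe sets stood at 0.04 and 0.24, neither called (adjusted p = 0.655 and 0.09208), although the first was called higher with quantile normalization (0.21) and with equal array medians (0.20), with adjusted p between 0.00455 and 0.8068.

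HSPD1 and HSPE1 lie head to head, and their promoter is shown because a single stretch of DNA serves a gene called higher and a gene with no settled direction. In RefSeq (GRCh38.p14) their start sites are 105 bases apart on opposite strands of chromosome 2. The HSPE1 window of 250 bases before and 50 after the start shares 204 bases with that of HSPD1. It is printed 5′ to 3′ on the plus strand, with matches to CACGTG, the motif bound by MYC and related factors, and to the motif of NRF1, searched as GCGC and TGCGC with any base between them, in capitals. No TTCNNGAA, the core of a heat shock element, is in this window.
HSPE1 promoter, chr2:197500129-197500428, plus strand: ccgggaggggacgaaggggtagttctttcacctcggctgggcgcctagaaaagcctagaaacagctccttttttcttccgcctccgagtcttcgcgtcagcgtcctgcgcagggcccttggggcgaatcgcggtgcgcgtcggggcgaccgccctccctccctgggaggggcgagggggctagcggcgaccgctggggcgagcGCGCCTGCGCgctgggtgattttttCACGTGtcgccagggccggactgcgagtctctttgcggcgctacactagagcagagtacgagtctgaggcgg

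The same windows of RefSeq were searched on both strands for the import and folding genes, 30 of which had one, and 2 of these a second. GRPEL1, TIMM8B and TOMM5, all called higher in both comparisons with vector arrays, had none and are missing from the shares and counts below. CACGTG was found in windows of 6 genes, or 18.8% of the 32 windows, against 7.26% of all 35116 windows. The NRF1 motif was found for 6 genes, HSPD1, HSPE1, TIMM29, TOMM20, TOMM34 and TOMM40, or 18.8% of windows against 5.78%. TTCNNGAA was found for HSPA9, HSPD1 (in its second window), TIMM10 and TOMM70 (12.5% against 7.74%), and TGATGNAA, an element bound by ATF4, for PMPCB and TIMM22 (6.25% against 3.62%). HSPD1 and HSPE1 share 1 CACGTG match and 1 match to the NRF1 motif. The CACGTG matches, in capitals, are shown with up to 17 bases on each side because these genes differed in their changes, with TIMM10 at 1.48 and TOMM20 at 0.31 in the arrays labelled ERBB2.
HSPA9, chr5:138575398-138575437, minus strand: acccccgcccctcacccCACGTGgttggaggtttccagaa
HSPE1, chr2:197500340-197500379, plus strand: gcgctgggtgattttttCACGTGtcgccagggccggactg
TIMM10, chr11:57530733-57530772, minus strand: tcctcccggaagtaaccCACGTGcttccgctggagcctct
TIMM8A, chrX:101348693-101348731, minus strand: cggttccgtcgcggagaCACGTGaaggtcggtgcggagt
TOMM20, chr1:235128983-235129022, minus strand: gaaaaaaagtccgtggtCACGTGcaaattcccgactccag

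The match begins 19 bases before the start in HSPA9, 22 before it in HSPE1, 1 before it in TIMM10 and 168 before it in TOMM20, and at base 29 of the transcript in TIMM8A. Of the 6 tested genes with CACGTG, 5 were called higher in each comparison with vector arrays, with medians of 0.52 in the arrays labelled ERBB2 and 0.54 with EGF. The other, HSPD1, was called lower in the arrays labelled ERBB2 on its brightest probe set and not called with EGF. Of 23 tested genes with a window and no match, 15 and 16 were called higher and 0 lower, with medians of 0.55 and 0.48.

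The direct comparison of the arrays labelled ERBB2 with the EGF arrays asked where the 2 stimuli differed. The groups differ in the virus and in 2 h of EGF, so kind and duration of the stimulus cannot be told apart. Of the 32 import genes 6 had higher and 3 lower signals in the arrays labelled ERBB2, and 23 were not called. The 9 calls were a share near the 28.8% of all genes that were called, 12.8% higher and 16% lower. The median was 0.06 over the 32 genes and 0.01 over all genes, and groups did not overlap for 15 of the 32, against 43% of all genes. With equal array medians the median of the 32 turned to -0.06 and the split to 3 higher and 6 lower, so the overall direction rests on the authors' scaling.

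TIMM10 had the largest difference (0.73 ± 0.10, adjusted p = 9.201e-06), and its further probe set gave 0.73 (adjusted p = 0.000226). TRAP1 was also higher in the arrays labelled ERBB2 (0.43 ± 0.09, adjusted p = 0.0008824). These were the 2 of 9 calls that held under all 19 alternatives. TOMM40 (0.39, adjusted p = 0.01366), TIMM23B (0.51, adjusted p = 0.01177) and TIMM13 (0.31, adjusted p = 0.005502) were higher too. Their calls ended under 4, 3 and 2 alternatives: for TOMM40 without ERBB2 replicate 3 (0.37), without EGF replicate 1 (0.36), with equal array medians and without a variance trend, for TIMM23B without ERBB2 replicate 1 (0.45), EGF replicate 1 (0.45) or EGF replicate 3 (0.46), and for TIMM13 with equal array medians and without a variance trend. The highest adjusted p over all alternatives were 0.08094, 0.05891 and 0.07116.

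TIMM9 was lower in the arrays labelled ERBB2 than with EGF (-0.33 ± 0.10, adjusted p = 0.018), opposite to its partner TIMM10. That call ended without ERBB2 replicate 3 (-0.30), EGF replicate 2 (-0.32) or EGF replicate 3 (-0.33) and without a variance trend, and the adjusted p ranged between 0.002964 and 0.09881. TIMM21 was lower as well (-0.36 ± 0.12, adjusted p = 0.03354), a call that ended under 8 alternatives, among them the mean of its probe sets (-0.06) and leaving out ERBB2 replicate 1 (-0.26) or 3 (-0.38) or EGF replicate 1 (-0.33) or 2 (-0.34), with adjusted p between 0.006914 and 0.7851. TIMM8B (0.21, adjusted p = 0.03312) had a further probe set called the other way (-0.37, adjusted p = 0.04086). Its call was lost under 8 alternatives, 7 of which kept the sign, including leaving out any ERBB2 replicate, EGF replicate 1 or EGF replicate 3 (0.19 to 0.23). The mean of its probe sets turned the sign (-0.08). HSPD1 was called lower on its brightest probe set (-0.30 ± 0.06, adjusted p = 0.0005982) and higher on the next (0.37, adjusted p = 0.01065), while a dim one was called lower (-0.77, adjusted p = 0.02948). The call on the brightest ended with the mean of all of them and without a variance trend. GRPEL1 and TOMM5, with their highest group means on EGF arrays, differed by -0.12 each, not called (adjusted p = 0.3567 and 0.3014), although TOMM5 was called with equal array medians (-0.23, adjusted p between 0.0367 and 0.6835 over the alternatives).

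**Figure D5:**
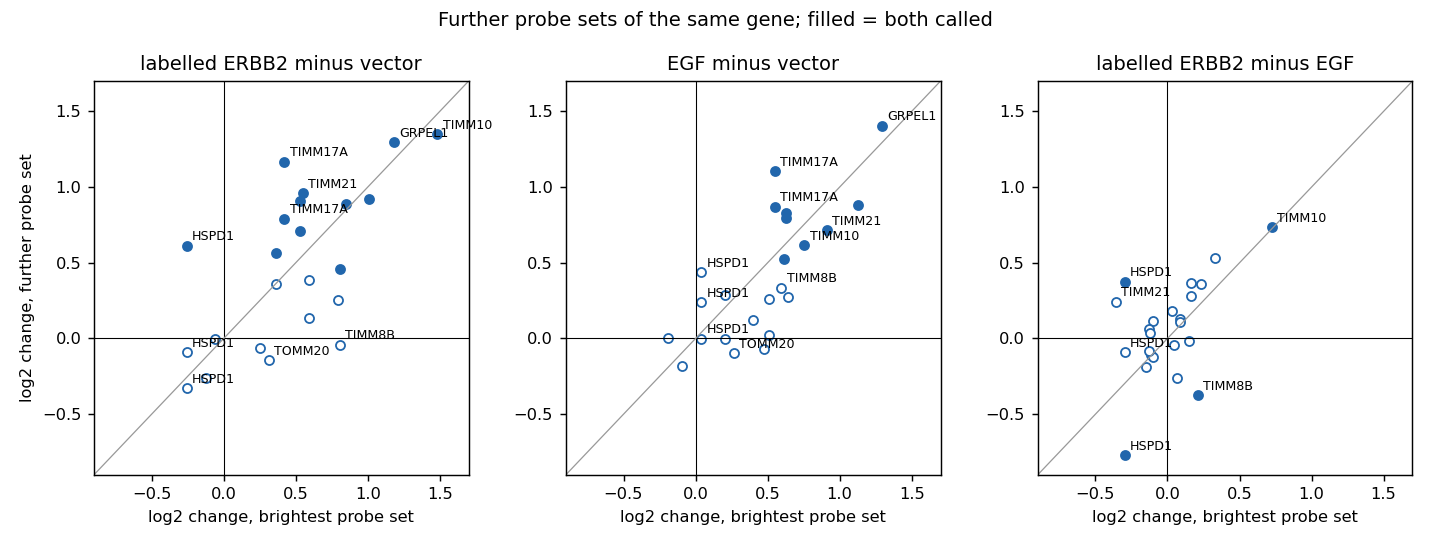
Log2 change of 23 further probe sets (y axis) against that of the probe set with the highest mean of the same gene (x axis), for 17 genes and 3 comparisons, with the line of equality. Filled points were called on both. Most points lie in the upper right in the comparisons with vector arrays, and HSPD1 in the arrays labelled ERBB2 lies in the upper left, called lower on one probe set and higher on another.

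Further probe sets of the same genes gave a measure of how firm the values are. Over all 32768 probe sets tested, 38.7% were called in the arrays labelled ERBB2, 17.7% higher and 21% lower. The shares were 28.8%, 12.9% and 15.9% with EGF and 23.8%, 11.6% and 12.2% in the direct comparison. Of 23 further probe sets of 17 genes, 19 had the sign of the representing one in the arrays labelled ERBB2 and 18 with EGF. Where the representing probe set was called, 11 of 20 further ones were called in the same direction in the arrays labelled ERBB2 and 1, of HSPD1, in the opposite one. With EGF 9 of 16 were called in the same direction and none in the opposite one, nor at an unadjusted p under 0.05 in limma. Between arrays labelled ERBB2 and EGF arrays the counts were 2 and 2 of 6.

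Genes that work beside the import machinery moved in both directions. Against vector arrays more of them rose than fell, whereas on the authors' scaling more of all genes tested fell than rose. Of 57 tested genes from 7 lists, 25 rose and 8 fell in the arrays labelled ERBB2 (median 0.17) and 20 rose and 8 fell with EGF (median 0.12). With equal array medians the EGF split of the 57 was 27 and 4. Among all genes tested 20.8% were called higher and 25% lower in the arrays labelled ERBB2, and 17.2% and 18.9% with EGF. The same shares apply beside the counts of each list below. CHCHD4, the oxidoreductase that traps small TIM proteins in the intermembrane space, averaged 625 in the arrays labelled ERBB2, 622 with EGF and 328 in vector arrays. It rose by 0.89 in both comparisons (adjusted p = 3.021e-07 and 6.481e-07). AIFM1, which binds CHCHD4, rose in the arrays labelled ERBB2 (0.39, adjusted p = 0.01578), a call that ended under 4 of 19 alternatives, among them leaving out vector replicate 3 (0.29) or ERBB2 replicate 2 or 3 (0.35 each), and GFER, which reoxidizes CHCHD4, was not called against vector arrays.

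Partners of TIM23, TIM22 and the motor rose in 5 of 9 cases and fell in 1 in the arrays labelled ERBB2, and rose in 4 and fell in 1 with EGF. The gene that fell was DNAJC15, a J-domain protein related to the motor subunit DNAJC19. It averaged 905 in the arrays labelled ERBB2, 1118 with EGF and 2368 in vector arrays (-1.37 and -1.07, adjusted p = 9.665e-11 and 8.140e-09). DNLZ, a cochaperone of HSPA9, rose by 1.23 in the arrays labelled ERBB2 and 0.485 with EGF, and PAM16, a motor subunit, by 0.76 and 0.64. In the same order GRPEL2, the second exchange factor, rose by 0.42 and 0.84 and the J-domain protein DNAJA3 by 0.675 and 0.82. Neither insertion factor of the inner membrane, OXA1L or BCS1L, was called (adjusted p of 0.7933 and 0.1139 in the arrays labelled ERBB2, and 0.4173 and 0.08843 with EGF).

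Outer membrane and cristae genes rose in 7 of 14 and fell in 2 in the arrays labelled ERBB2, and rose in 4 and fell in 3 with EGF. DNAJC11, which associates with the cristae complex MICOS, rose by 0.80 and 0.55. The MICOS subunit CHCHD3 rose by 0.65 and 0.42 (the second call ended with the mean of its probe sets, 0.17) and CHCHD6 by 0.69 in the arrays labelled ERBB2, whereas APOO fell with EGF (-0.44, adjusted p = 0.03011), a call that ended under 7 alternatives, among them leaving out vector replicate 2 (-0.37) or 3 (-0.33) or EGF replicate 1 (-0.36) or 2 (-0.38). Of 5 further presequence peptidases, MIPEP rose by 0.88 and 0.50, IMMP2L fell in the arrays labelled ERBB2 (-0.49) and PITRM1 fell with EGF (-0.28). The last 2 calls were lost under 5 and 7 alternatives, and for PITRM1 the mean of its probe sets turned the sign (0.05). For IMMP2L these include leaving out vector replicate 1 (-0.37) or 3 (-0.45) or ERBB2 replicate 2 (-0.42) or 3 (-0.41). For PITRM1 the others include leaving out vector replicate 2 (-0.25) or 3 (-0.27) or EGF replicate 1 (-0.24) or 3 (-0.30). The EGF call of MIPEP ended without EGF replicate 2 (0.37).

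Quality control genes rose in 5 of 13 and fell in 2 in the arrays labelled ERBB2, and rose in 5 and fell in 1 with EGF. The matrix protease LONP1 averaged 537 in the arrays labelled ERBB2, 282 with EGF and 249.9 in vector arrays (1.05, adjusted p = 4.765e-07, and 0.17, adjusted p = 0.3212), and the direct difference of 0.88 was called (adjusted p = 1.233e-05). PHB1, a scaffold of the inner membrane, rose by 0.92 and 0.57, and ATAD1, which extracts misplaced proteins from the outer membrane, by 0.47 and 0.50. PINK1, a kinase that healthy mitochondria import and degrade, averaged 149.6 in the arrays labelled ERBB2, 266 with EGF and 434 in vector arrays. It fell in both (-1.44 and -0.67, adjusted p = 2.529e-08 and 0.0005798) and was lower in the arrays labelled ERBB2 than with EGF (-0.77, adjusted p = 0.0001691).

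In the direct comparison 28.8% of all genes were called, 12.8% higher and 16% lower in the arrays labelled ERBB2. The 57 neighbouring genes gave 14 calls toward higher signal in the arrays labelled ERBB2 and 9 toward lower, or 5 and 11 with equal array medians. Besides LONP1, these included DNLZ (0.75), DNAJC19 (0.38), GFER (0.59), APOO (0.57), the MICOS core subunit IMMT (0.47), MIPEP (0.38) and PITRM1 (0.30) on the higher side. GRPEL2 (-0.42), the channel VDAC1 (-0.52) and the protease HTRA2 (-0.53) were on the lower side. DNLZ, IMMT and LONP1 kept their calls under all 19 alternatives, while those of GFER, MIPEP and PITRM1 ended under 8, 11 and 6. These included leaving out ERBB2 replicate 1 or 2 or EGF replicate 1 or 2 for GFER (0.47 to 0.64), vector replicate 3, any ERBB2 replicate or EGF replicate 1 or 3 for MIPEP (0.28 to 0.44) and ERBB2 replicate 2 or 3 or EGF replicate 1 for PITRM1 (0.26 to 0.30). The call of HTRA2 ended without ERBB2 replicate 3 (-0.45), that of DNAJC19 under 3 alternatives, 1 of them without EGF replicate 1 (0.30), that of APOO without a variance trend, and those of GRPEL2 (-0.04) and VDAC1 (-0.20) with the mean of their probe sets.

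Regulators of mitochondrial gene expression rose in 5 of 11 and fell in 2 in each comparison with vector arrays. ESRRA, a nuclear receptor that drives mitochondrial genes and was picked out after its values were seen, averaged 299.0 in the arrays labelled ERBB2, 316 with EGF and 488 in vector arrays. It fell in both (-0.68, adjusted p = 5.106e-05, and -0.60, adjusted p = 0.0003219), and the second call ended with the mean of its probe sets (-0.30). PPRC1, a coactivator of the PGC-1 family, averaged 222.5 in the arrays labelled ERBB2, 204 with EGF and 66.0 in vector arrays. It rose by 1.55 and 1.43 (adjusted p = 7.890e-08 and 5.547e-07). NRF1, a transcription factor of import genes, rose by 0.75 and 0.71 (the second call ended with the mean of its probe sets, 0.26), and TFAM, which packages mitochondrial DNA, by 0.83 and 0.93. MYC rose by 0.62 with EGF (adjusted p = 1.474e-05) and by 0.27 in the arrays labelled ERBB2 (adjusted p = 0.01565), where the call ended under 5 alternatives, among them leaving out vector replicate 1 (0.24) or 3 (0.25) or ERBB2 replicate 1 (0.17). ATF5, a factor of the mitochondrial unfolded protein response, was not called (0.19 and -0.14, adjusted p = 0.3987 and 0.5632). DDIT3, which encodes the stress factor CHOP, averaged 56.5 in the arrays labelled ERBB2, 28.5 with EGF and 106 in vector arrays. It fell in both (-0.78, adjusted p = 0.02454, and -1.54, adjusted p = 0.0001695), and the first call ended under 7 alternatives, among them leaving out vector replicate 2 (-0.77) or 3 (-0.69) or ERBB2 replicate 1 (-0.78) or 2 (-0.58).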

How the data were processed

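RNA of MCF10A cells was measured on 9 arrays of 54675 probe sets. The deposited values are linear signal intensities made by the authors with MAS5, per the submitters' processing notes. The sources used here give neither its version nor its settings. Detection calls were not used, so which low signals lie above background is unknown. MAS5 multiplies all signals of an array by a common factor, which can absorb part of a change shared by many genes. Median signals were 17.9 to 20.1 on arrays labelled ERBB2, 15.6 to 16.9 on EGF arrays and 19.8 to 20.2 on vector arrays.

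In the platform annotation 41097 probe sets had 1 gene symbol, 1801 had several and 11777 had none. Control probe sets (62) were not used. Probe sets with a mean log2(signal + 16) above the 40th percentile were tested. A model with a mean for each of the 3 groups was fitted to the 9 arrays together in limma 3.58.1 under R 4.3.3 (lmFit, then eBayes with trend), leaving 6 residual degrees of freedom. It was also run on simulated data with independent normal noise for each probe set. The simulated arrays held no differences in scaling or RNA quality, so the effect of these was not tested. For a gene on its own, 3 arrays against 3 allow no exact permutation p below 0.1, and precision is limited by how few arrays there are.

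The genes and lists were chosen with earlier results of these data known. Signals on every array are given for the 5 largest called rises and falls per comparison, for core subunits and for paralogs, and of each neighbouring list the 3 largest called changes and 6 regulators are named. Deviations of same-numbered replicates correlated between -0.03 and 0.019, so numbers were not taken as pairs. Alternatives were other pseudocounts, filters, scalings and variance models, the 2 groups alone, a replicate block, the mean of a gene's probe sets and leaving out each array.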

Additional observations from a re-analysis of the deposited data

How the results depend on the processing

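In each comparison with vector arrays 24 import and folding genes were called. Leaving out each array gave 23 to 24 calls in both. Without a variance trend 20 were called in the arrays labelled ERBB2 and 22 with EGF, with the mean of all probe sets 20 with EGF, and with equal array medians 26 with EGF. Of those calls, 20 in the arrays labelled ERBB2 and 19 with EGF held under all 19 alternatives. Between labelled ERBB2 and EGF arrays 2 of 9 calls did. The count there was 3 without a variance trend and 5 to 10 when each array was left out, with 5 without EGF replicate 1. For the neighbouring genes it was 9 without a trend, against 23, and 15 to 22 when each array was left out. Leaving out each array gave 28 to 33 calls of neighbouring genes in the arrays labelled ERBB2, against 33, and 24 to 29 with EGF, against 28. With the replicate number as a block the calls were 24, 24 and 9, as without it, and the block changed no call of an import gene. Numbers were not shown to pair the arrays.

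Sign changes with EGF against vector arrays arose for changes that were not called and for the called change of PITRM1 (-0.278). With equal array medians MTX1 stood at 0.13, PMPCB at 0.065, TIMM17B at 0.15, TIMMDC1 at 0.021 and ATF5 at 0.016, and quantile normalization put TIMM17B at 0.021. With each array left out, MTX1 lay between -0.091 and 0.040, TIMM17B between -0.040 and 0.024 and, in the arrays labelled ERBB2, TIMM9 between -0.021 and 0.177. Averaging all probe sets of a gene put PITRM1 with EGF at 0.052, and TIMM8B between labelled ERBB2 and EGF arrays at -0.082. Neither scaling turned the sign of a called change of an import gene. The causes were not tested. With equal array medians the share of rises among all calls with EGF was 67.5%, against 44.8%, and between labelled ERBB2 and EGF arrays 31.8%, against 48.7%. Dim genes such as TIMM23 are limited by signal over background, which is unknown here.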
